A study of Zea mays with 6 samples.

Results

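The genes described here encode enzymes of the phenylpropanoid and lignin pathway in maize (Zea mays). They are 7 of 8 genes chosen by name from the 49785 genes of the count table: 2 phenylalanine ammonia-lyases (PAL), 2 caffeoyl-CoA O-methyltransferases (CCoAOMT), 2 cinnamoyl-CoA reductases (CCR) and 1 cinnamyl alcohol dehydrogenase (CAD). Kernels were collected 13 days after pollination from field-grown wild-type plants (WT) and from the mutant that the labels call shrek1, with the genotype Shrek1-/-. The pericarp was peeled off, and each genotype is represented by 3 libraries of whole-kernel RNA. The sources used here do not say whether the libraries of a genotype came from separate ears or plants, so p-values measure the spread between these libraries, which may be technical, and a difference between lines cannot be told apart from one between genotypes. The genotype labels were not checked against the targeted gene here.

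The phenylpropanoid pathway starts from phenylalanine, from which PAL removes ammonia to give cinnamic acid. Hydroxylases, coenzyme A ligases and O-methyltransferases then build and decorate the aromatic ring, CCR reduces the activated acids to aldehydes, and CAD reduces the aldehydes to the alcohols (monolignols) that are joined into lignin. The same early intermediates feed flavonoids and the ferulic acid that is esterified to grass cell walls, including those of the kernel.

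The libraries held 17145006 to 20288565 counts. Levels are given as CPM, counts scaled to a common library size with TMM factors (a scaling that balances libraries of different composition), and between genes as the deposited FPKM, which divides by gene length. Across genes, Pearson correlations of log2 CPM were 0.974 to 0.985 for libraries of 1 genotype and 0.813 to 0.829 across genotypes (genes are not independent replicates). "Rose" and "fell" are used of genes with an adjusted p under 0.05 in shrek1 against WT, from the quasi-likelihood test of edgeR, adjusted by Benjamini-Hochberg over the 22681 genes tested.

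All 7 genes were among those tested. In shrek1 kernels 3 fell, a PAL gene, a CCR gene and cad1, while the O-methyltransferase gene CCoAOMT1 rose and the other 3 did not pass the test. The 4 called genes are to be read against a background of 64.4% of all tested genes, with 32.0% higher and 32.4% lower, so the share of called genes is near that of the whole table. The CPM ranges of the genotypes did not overlap for the same 4 genes, against 70.0% of all tested genes. The sizes differed widely: cad1 fell 40.4-fold, whereas the CCoAOMT gene LOC100273683 differed by a log2 fold change of 0.13 with a 95% interval of -0.09 to 0.36. Together the 7 genes took 0.0425% ± 0.00490 (SD, n = 3) of all counts in WT and 0.0262% ± 0.00128 in shrek1. These shares are of raw counts, without TMM factors. The largest drops were in cad1 (78.3 to 1.90 CPM) and LOC100284029 (46.3 to 8.53 CPM), while CCoAOMT1 rose. These are bulk kernels, in which fewer cells of a type and less RNA per cell cannot be told apart.

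**Figure D1:**
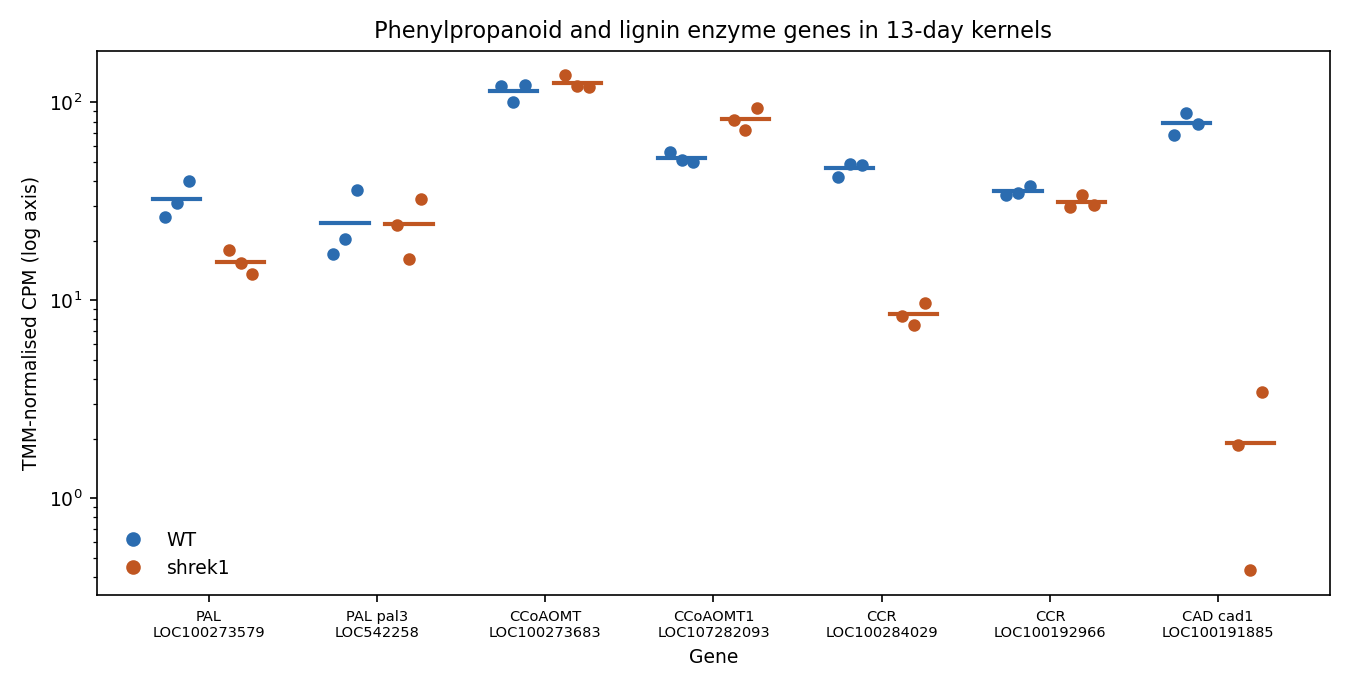
TMM-normalised CPM (log axis) of the 7 genes in each WT and shrek1 library; points are libraries and bars are the means of 3 libraries. The genotypes are separate for 4 genes, and cad1 has the widest gap, from 68.5 to 88.9 CPM in WT to 0.433 to 3.43 CPM in shrek1.

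PAL commits phenylalanine to the pathway, and its 2 listed genes lie near each other on chromosome 5. The gene described as phenylalanine ammonia lyase9 (LOC100273579, chromosome 5, 190489343 to 190493348, minus strand) had 26.4, 30.9 and 40.2 CPM in WT replicates 1, 2 and 3, and 18.0, 15.5 and 13.5 CPM in the shrek1 replicates. Every shrek1 library lay below every WT library. The gene fell 2.07-fold, with a log2 fold change of -1.05 ± 0.17 (SE) and an adjusted p of 0.000334 by edgeR's quasi-likelihood test. With an offset for gene length the value was -0.69, still called.

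Its neighbour, phenylalanine ammonia lyase 3 (LOC542258, chromosome 5, 190440495 to 190443938, minus strand), is annotated by its best protein match as a bifunctional enzyme that can also take tyrosine. It had 17.1, 20.3 and 36.1 CPM in WT and 24.0, 16.1 and 32.6 CPM in shrek1. The genotypes overlapped throughout, and replicate 3 was the highest library in both. The log2 fold change was -0.02 ± 0.35, with a 95% interval of -0.86 to 0.82, so a change of up to about that size in either direction was not detectable with these libraries. The highest WT library was 2.11 times the lowest for this gene, the widest WT range among the 7.

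The ratio of counts between the PAL pair does not depend on how libraries are scaled. LOC100273579 had 1.54, 1.52 and 1.12 counts per count of LOC542258 in WT, and 0.749, 0.962 and 0.416 in shrek1. The first gene had the more counts in every WT library and the fewer in every shrek1 library. The mean log2 ratio differed by -1.04 between genotypes, and an exact permutation test (two-sided) gave p = 0.1, its lowest possible value with 3 libraries a genotype, or 0.1 adjusted over the 3 pairs compared in this way, which are the steps with 2 listed genes.

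O-methyltransferases add the methoxyl groups that distinguish the kinds of lignin unit, and CCoAOMT acts on the coenzyme A ester of caffeic acid on the way to ferulic acid. CCoAOMT1 (LOC107282093, chromosome 6, 88748588 to 88750049, plus strand) had 56.0, 50.9 and 50.2 CPM in WT and 81.5, 72.3 and 93.1 CPM in shrek1. All shrek1 libraries lay above all WT libraries, and the gene rose 1.57-fold, with a log2 fold change of 0.65 ± 0.11 (adjusted p = 0.000318, edgeR's quasi-likelihood test). With library size only the value was 0.36, still called.

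The second CCoAOMT gene, LOC100273683 (chromosome 9, 17958776 to 17960635, minus strand), had the most counts of the 7 genes. Its deposited description is uncharacterized, and its place in the family rests on its best protein match, a CCoAOMT. Its libraries stood at 121, 101 and 123 CPM in WT and 137, 121 and 120 CPM in shrek1, with overlapping ranges. It did not pass the test (0.13 ± 0.10, adjusted p = 0.271 by edgeR's quasi-likelihood test). WT libraries had 2.16, 1.98 and 2.44 counts of LOC100273683 per count of CCoAOMT1, and shrek1 libraries 1.68, 1.68 and 1.29. That ratio was lower in every shrek1 library, by 0.51 on the log2 scale (exact permutation p = 0.1, adjusted p = 0.1).

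CCR makes the first step that is specific to monolignols. LOC100284029 (chromosome 5, 133621425 to 133629880, plus strand), whose best protein match is Arabidopsis CCR1, had 41.9, 48.7 and 48.4 CPM in WT and 8.34, 7.54 and 9.71 CPM in shrek1. Each genotype was tight and the gap between them wide. The gene fell 5.42-fold, with a log2 fold change of -2.44 ± 0.13 and an adjusted p of 1.6e-07 by edgeR's quasi-likelihood test.

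The second CCR gene, LOC100192966 (chromosome 9, 104757882 to 104762044, plus strand), best matches rice CCR1. It had 34.1, 34.9 and 37.8 CPM in WT and 29.8, 34.1 and 30.3 CPM in shrek1. A single shrek1 library reached the WT range, and only just, at 34.06 CPM in replicate 2 against 34.05 CPM in WT replicate 1. It did not pass (log2 fold change -0.18 ± 0.10, 95% interval -0.40 to 0.04). With library size only it was called lower at -0.47, with upper-quartile scaling at -0.32, and without WT replicate 1 at -0.29. The ratio of LOC100284029 to LOC100192966 was 1.23, 1.40 and 1.28 in WT and 0.280, 0.221 and 0.320 in shrek1. It was 4.8-fold lower in shrek1, the widest shift of the 3 pairs (exact permutation p = 0.1, adjusted p = 0.1).

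CAD makes the last reduction before the alcohols are exported to the wall. The gene cad1 (LOC100191885, chromosome 2, 10925155 to 10929358, minus strand), whose best match is the rice CAD7 gene FLEXIBLE CULM 1, had 68.5, 88.9 and 77.6 CPM in WT. In shrek1 it had 1.85, 0.433 and 3.43 CPM, from 32, 7 and 60 counts. Its log2 fold change was -5.34 ± 0.45 (adjusted p = 5.33e-05, edgeR's quasi-likelihood test), and 1.95% of the tested genes had a lower value. The highest shrek1 library was 7.92 times the lowest, against at most 2.11 for the other 6 genes in either genotype. Without shrek1 replicate 3 the log2 fold change was -6.06, and without replicate 2 it was -4.88, with the call kept in both.

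Embryo transcripts moved in the same direction as cad1 and the CCR gene LOC100284029. Of the 7 embryo symbols examined, 6 matched the tables, through 7 genes of which 1 is a haemoglobin gene that shares the symbol glb1. The other 6 genes (ole1, glb1, glb2, vp1, lec1 and kn1) all fell, where 32.4% of all tested genes fell. The summed level of the list was 5540 to 7090 CPM in WT and 101 to 116 CPM in shrek1, with glb2 at no count in shrek1. Most of the shrek1 sum came from ole1, at a mean of 92.3 CPM. The part of embryo content in the lower levels of cad1, LOC100284029 and LOC100273579 was not tested.

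Other tissue markers moved less, and their calls are to be read against 32.0% of all tested genes higher and 32.4% lower. Starchy endosperm markers summed to 83500 to 111000 CPM in WT and 50000 to 67700 in shrek1, with 3 of 7 genes higher and 3 lower, and aleurone markers to 348 to 399 and 579 to 787 CPM, with 2 of 4 higher and 2 lower. Genes annotated with chlorophyll binding, for green tissue, had 8 of 35 members tested, 3 higher and 3 lower, and summed to 22.3 to 27.4 and 16.7 to 19.4 CPM. The most abundant, LOC103626067, is described as a phosphatase inhibitor subunit, and without it, a choice made after seeing the data, the sums were 12.2 to 16.9 and 7.17 to 8.63 CPM. Transfer layer markers summed to 21.7 to 38.5 and 26.3 to 63.9 CPM, with betl1 at no count, but the symbol mrp1 led to a multidrug resistance gene that held most of the WT sum. Without that gene the transfer layer sums were 7.96 to 10.5 CPM in WT and 54.4, 20.3 and 5.48 CPM in shrek1 replicates 1, 2 and 3, and of the 3 genes then tested betl2 rose, from 1.32 to 11.1 CPM. Embryo-surrounding region markers stayed under 5 CPM in sum. The secondary-wall cellulose synthase genes cesa10, cesa11 and cesa12 of lignifying cells were near 0, at 0.660 to 1.15 CPM in WT and 1.17 to 2.23 CPM in shrek1. Xylem cysteine proteinase genes summed to 7.73 to 9.63 and 5.56 to 10.5 CPM, with 2 of 3 tested genes lower and 1 higher. Laccase genes, which oxidise monolignols in the wall, summed to 13.7 to 15.4 CPM in WT and 2.35 to 3.14 CPM in shrek1, with 4 of 6 tested genes lower and 1 higher.

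Per length of gene, the order of the 7 genes changed between genotypes. In WT, LOC100273683 led with 68.2 FPKM ± 6.24 (SD, n = 3), followed by CCoAOMT1 with 49.9 ± 2.08 and cad1 with 48.9 ± 7.41, whose ranges overlapped. The CCR genes LOC100284029 (33.1 ± 3.42) and LOC100192966 (29.0 ± 1.90) came next with overlapping ranges. The PAL genes were lowest, LOC100273579 at 12.5 ± 2.82 and LOC542258 at 7.89 ± 3.30, again with overlap.

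In shrek1 the 2 CCoAOMT genes led without being separable, CCoAOMT1 at 76.9 FPKM ± 9.18 and LOC100273683 at 73.4 ± 5.47. LOC100192966 followed at 25.0 ± 2.06, clear of its neighbours. LOC542258 (7.63 ± 2.53), LOC100284029 (5.97 ± 0.724) and LOC100273579 (5.90 ± 0.851) formed a group whose neighbouring ranges overlapped. The gene cad1 was last, at 1.16 ± 0.908 FPKM, below all others.

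Within each enzyme family, the listed genes were set beside every other gene annotated with the same step. Of 15 genes annotated as PAL, LOC100273579 supplied 32.6% ± 1.15 of the summed FPKM in WT and 26.5% ± 7.49 in shrek1, and LOC542258 supplied 20.1% ± 3.54 and 32.4% ± 4.20. The summed PAL level was 29.1, 38.0 and 48.2 FPKM in WT and 24.2, 17.8 and 27.5 FPKM in shrek1. A transcribed pseudogene, LOC103653804, held 20.4% ± 2.43 and 28.8% ± 4.07 of it. Sequence was not used here, and the treatment of reads shared by PAL copies in the counting is not stated, so the division among them is uncertain.

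The CAD family was rearranged more. The gene cad1 gave 68.2% ± 0.993 of the summed FPKM of 12 CAD-annotated genes in WT and 6.43% ± 4.70 in shrek1. LOC100281367, which best matches rice CAD1, gave 2.28% ± 0.407 in WT and 49.7% ± 4.65 in shrek1. The sum itself was 61.0, 82.0 and 72.3 FPKM in WT and 18.5, 14.1 and 18.4 FPKM in shrek1, so the higher share of LOC100281367 lay within a smaller total. LOC100281367 rose from 2.0 ± 0.101 to 10.8 ± 2.37 CPM (log2 fold change 2.43 ± 0.22).

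**Figure D2:**
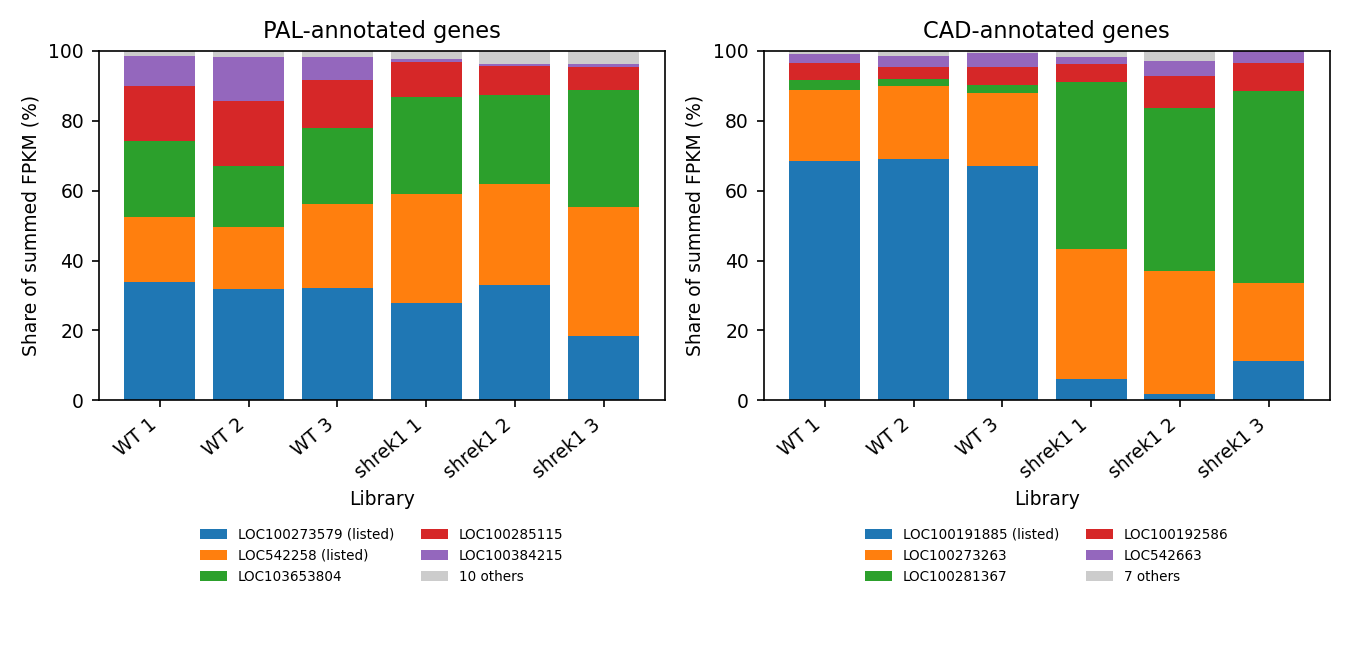
Share of the summed FPKM (%) of all PAL-annotated genes (left) and all CAD-annotated genes (right) that each gene supplied, in each library; the 5 genes with the highest mean share are coloured and the rest are grey. In the CAD panel cad1 (LOC100191885) goes from 67.1 to 69.0% in WT to 1.89 to 11.3% in shrek1.

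Among CCR-annotated genes, the 37 genes summed to 157, 173 and 162 FPKM in WT and 118, 106 and 124 FPKM in shrek1. LOC100284029 gave 20.1% ± 1.39 of this in WT and 5.15% ± 0.269 in shrek1, while LOC100192966 gave 17.7% ± 1.19 and 21.8% ± 3.59. The 2 listed CCoAOMT genes made up nearly the whole family sum, LOC100273683 with 57.4% ± 2.72 in WT and 48.7% ± 3.90 in shrek1 and CCoAOMT1 with 42.1% ± 2.44 and 50.8% ± 3.70.

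Several of these genes sit in clusters of relatives. The PAL cluster on chromosome 5 spans 123 kb and holds 4 genes, of which only the 2 listed ones had enough counts to be tested, the others having 16 and 22 counts in all 6 libraries together. A second PAL cluster, on chromosome 4, holds the pseudogene LOC103653804, which did not pass (-0.17 ± 0.29), LOC100285115, which fell by 1.63 ± 0.22 on the log2 scale, and LOC100281532 with no count. On chromosome 2, phenylalanine ammonia lyase2 (LOC100384215) fell and its neighbour LOC100281042 rose by 1.11 ± 0.43 from 0.619 to 1.35 CPM, a call that was lost under 12 of 15 alternatives, leaving out any 1 WT library, shrek1 replicate 2 or shrek1 replicate 3 among them (0.84 to 1.30). Each of these clusters held 1 gene called lower beside another that was not called lower, where 32.4% of all tested genes were called lower.

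The listed CCR gene LOC100192966 is 1 of 5 CCR-annotated genes within 270 kb of chromosome 9. Of these, LOC103638781 fell by 1.96 ± 0.29 on the log2 scale and LOC103638788 by 0.76 ± 0.24, the latter without a call under the length offset (-0.60) and without WT replicate 2 (-0.71), shrek1 replicate 1 (-0.63) or shrek1 replicate 3 (-0.66). LOC100284846 (-0.56 ± 0.28, but called at -1.02 without shrek1 replicate 1), LOC100192966 itself and LOC100193896 (-0.16 ± 0.14) did not pass. All 5 values were below 0 with TMM scaling, while LOC100193896 stood at 0.06 with an offset for gene length. The other listed CCR gene, LOC100284029, has no CCR-annotated neighbour within 500 kb.

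The remaining genes of the pathway were taken by the wording of their descriptions, which also lets in relatives of other function. This list has 188 genes besides the 7, of which 87 were tested, 14 rose, 48 fell and 25 did not pass. That is 16.1% higher and 55.2% lower, where all tested genes had 32.0% and 32.4%, and the list's median log2 fold change was -0.76 against -0.01 for all tested genes. On the scale of log2(FPKM + 1), limma's median was -0.50 over the same genes and -0.13 over the 144 pathway genes it took in without the count filter. The list includes 17 tested dirigent and 2 tested chalcone synthase genes. Without these, a choice made after seeing the data, the list had 36 genes lower and 12 higher of 68 tested, and its median was -0.66.

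**Figure D3:**
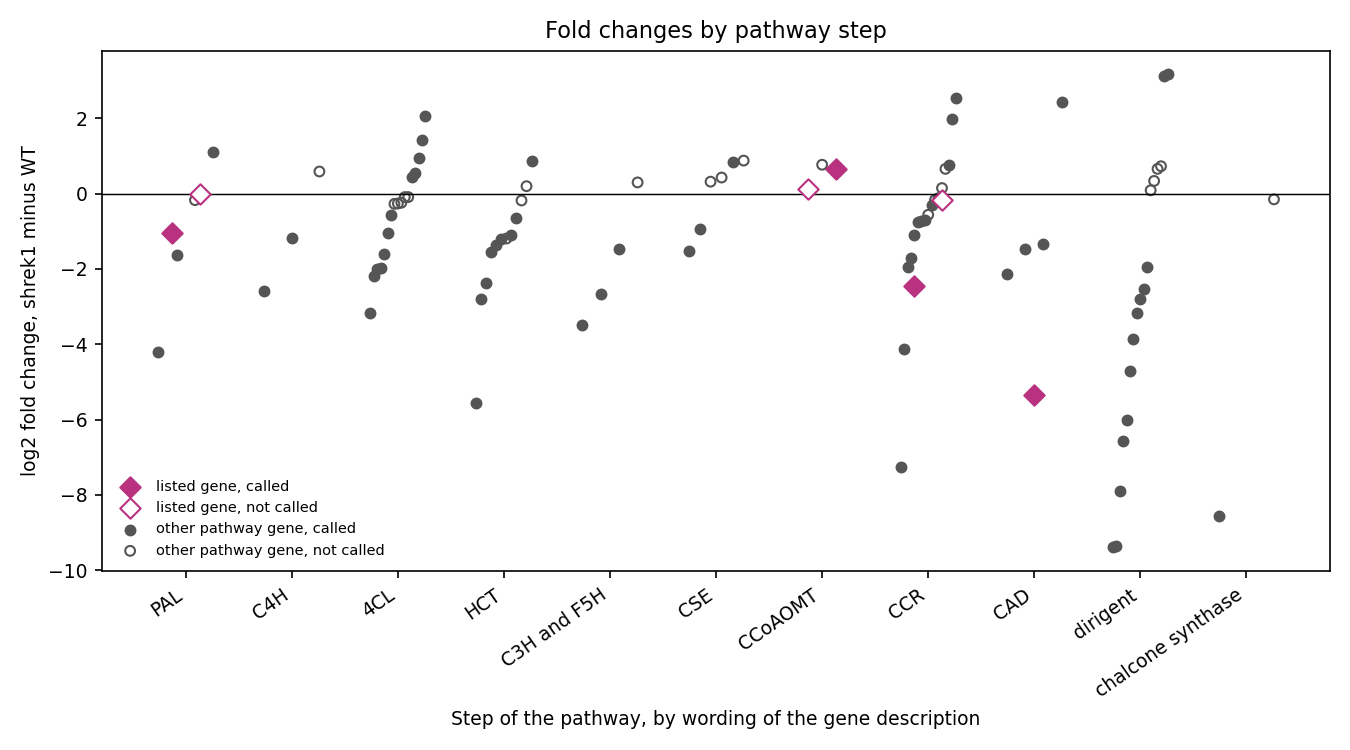
Log2 fold change (shrek1 minus WT) of each tested pathway gene, by step; diamonds are the 7 listed genes, circles the other genes, and filled symbols passed the test. Of the filled circles, 48 lie below 0 and 14 above it, where 32.4% of all tested genes were called lower and 32.0% higher. The CCoAOMT1 diamond lies above 0.

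The counts by step that follow are to be read against 32.4% of all tested genes lower and 32.0% higher. At the entry of the pathway, 2 of the 4 tested PAL relatives fell and 1 rose. Phenylalanine ammonia lyase2 (LOC100384215) went from 9.53 ± 2.98 to 0.506 ± 0.172 CPM (SD, n = 3), a log2 fold change of -4.21 ± 0.34 (-1.89 on the log2(FPKM + 1) scale, which understates changes of low genes). Cinnamate 4-hydroxylase (C4H) puts the first hydroxyl group on the ring, and 2 of 3 tested genes fell. The most abundant of them by mean CPM, LOC100272801, fell from 28.5 ± 10.4 to 4.76 ± 0.534 CPM, a log2 fold change of -2.58 ± 0.28.

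The ligase 4CL activates the acids with coenzyme A, and 5 of 17 tested genes of that wording rose while 7 fell. The most abundant, LOC100285908, is described by its match as an oxalate-CoA ligase, a relative with another substrate, and rose from 61.0 ± 8.23 to 254 ± 37.2 CPM. A 4CL-like gene, LOC103654103, fell by 3.18 ± 0.16 on the log2 scale. Chosen after its values were seen, the gene named 4-coumarate--CoA ligase 1 (LOC542166) rose by 1.42 ± 0.22 on the log2 scale (0.85 as log2(FPKM + 1)), from 2.17 ± 0.263 to 5.80 ± 0.820 CPM.

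Hydroxycinnamoyltransferases (HCT) form the shikimate esters on which the next hydroxylation takes place, and 8 of 12 tested genes fell and 1 rose. The most abundant, LOC100194386, did not pass (39.4 ± 11.5 and 34.8 ± 4.46 CPM) but was called at -0.40 without WT replicate 2. LOC100281073, described as an anthranilate benzoyltransferase, fell by 1.21 ± 0.23 on the log2 scale. Of the 4 P450 hydroxylases that add the later hydroxyl groups, 3 fell, and the most abundant, the CYP98A-type gene LOC100274274, did not pass (21.2 ± 7.03 and 26.1 ± 2.97 CPM). It was called higher at 0.57 with the length offset and at 0.51 without WT replicate 3. Caffeoylshikimate esterase is an enzyme that releases caffeic acid, and of 6 tested genes of that wording 1 rose and 2 fell. The most abundant, LOC103651036, had 16.1 ± 9.84 and 29.4 ± 12.3 CPM without a call, except at 1.42 without WT replicate 1, and LOC100217066 fell by 1.51 ± 0.17.

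LOC100384287, described as caffeoyl-CoA O-methyltransferase 2 and the only other tested CCoAOMT gene, had 0.510 ± 0.186 and 0.869 ± 0.533 CPM and did not pass.

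Of 17 other tested CCR-annotated genes, 3 rose and 9 fell. LOC100191263 (chromosome 5, 2914736 to 2925530) fell from 19.2 ± 3.16 to 0.116 ± 0.150 CPM, with 6 counts in the 3 shrek1 libraries together. Its log2 fold change was -7.27 ± 0.42, and -9.03 without shrek1 replicate 3, which held 5 of those counts. With limma it was -5.94 as log2(FPKM + 0.1) and -3.21 as log2(FPKM + 1), called in both. A CCR-annotated pseudogene overlaps its end, with 25 counts in all libraries. LOC100280347, described as a dihydroflavonol reductase with a CCR-like best match, rose from 20.2 ± 5.12 to 34.5 ± 4.88 CPM, by 0.77 ± 0.18 on the log2 scale (0.49 with library size only). The gene that carries the maize CCR synonym cncr1 (LOC542463), chosen after its values were seen, did not pass, at 2.85 ± 0.785 and 4.48 ± 1.71 CPM. It was called higher at 0.90 with the length offset and at 0.88 without shrek1 replicate 2.

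All 4 other tested CAD-annotated genes were called, 1 higher and 3 lower, where 64.4% of all tested genes were called. LOC100273263 fell from 21.9 ± 2.99 to 7.96 ± 2.16 CPM. The gene with the synonym bm1 (LOC542663), known for the brown midrib phenotype of maize with altered lignin, was chosen after its values were seen. It fell by 2.14 ± 0.34 on the log2 scale (-1.15 as log2(FPKM + 1)), from 3.74 ± 1.06 to 0.845 ± 0.182 CPM, and supplied 3.43% ± 0.751 of the CAD family's FPKM in WT.

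The genes whose profiles across the 6 libraries were most like that of LOC100273683, by Pearson's r of log2 CPM among 6820 candidates, were a peptidyl-prolyl isomerase gene (LOC100216820, r = 0.961), an oxidoreductase gene (LOC100283396, 0.958) and the RINT1-like gene MAG2 (LOC103627742, 0.954). For cad1 they were LOC103652442, which has no description (0.999), cytochrome P-450 8 (LOC100126887, 0.999) and the trihelix factor gene GTL2 (LOC100273304, 0.999). An r over 0.95 was reached by 3 candidates for LOC100273683 and by 644 for cad1. With 6 libraries in 2 genotypes, a steady gap between genotypes can be enough for a high r with cad1. Among 6820 candidates, an r over 0.95 with LOC100273683 can arise by chance. Shared regulation was not tested. The closest to cad1, LOC103652442, had 15.4, 15.9 and 15.6 CPM in WT and 10.1, 9.21 and 11.0 in shrek1. That gap was far smaller than the gap of cad1. LOC100126887 had 91.1, 129 and 92.9 CPM in WT and 2.72, 0.927 and 4.06 in shrek1. Both genes had the same order of shrek1 libraries as cad1, which their choice by r over these same libraries favours.

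**Figure D4:**
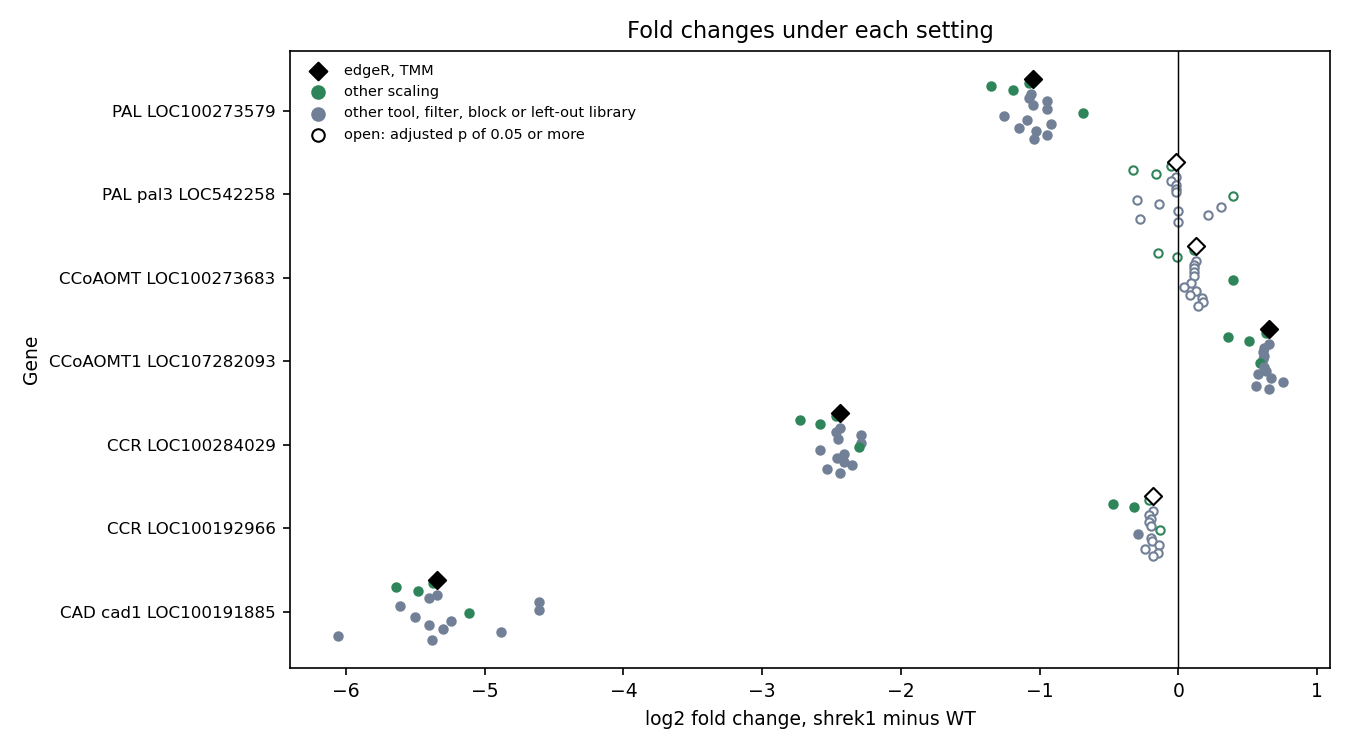
Log2 fold change (shrek1 minus WT) of each of the 7 genes with TMM scaling (diamonds) and under 16 other settings (circles); filled symbols had an adjusted p under 0.05. The 3 genes that fell and CCoAOMT1 kept direction and call throughout, and LOC542258 lies on both sides of 0, from -0.33 to 0.39.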

How the data were processed

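The authors deposited raw counts per gene and FPKM values for 6 libraries. The submitters' processing notes name HISAT2 (2.0.5) and featureCounts (1.5.0-p3); their roles, the genome build and the strand setting are not given in the sources used here. Each deposited FPKM value was the count over the listed gene length, divided further by 1 constant per library, to within 1.56e-07% over 14776 well-counted genes. The constants did not follow the library totals. The library with the most counts, shrek1 replicate 3, had 0.0180, below the 0.0185 to 0.0212 of WT. The FPKM values, and the limma alternatives that use them, therefore already carry a scaling between libraries. Per the labels, the library kit keeps strand. No other gene overlaps the 7 genes described, and 1 of the 8 listed genes is not reported here.

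Counts were filtered with filterByExpr, scaled with TMM and tested with edgeR 4.0.16 (quasi-likelihood, robust, two-sided) in R 4.3.3. Standard errors come from the fold change and the F value. Alternatives used DESeq2 1.42.0, limma 3.58.1 and other settings. The test was checked on simulated counts in which far fewer genes changed than here, equally in both directions. That check therefore does not cover the scaling of these data. Chromosome numbers and synonyms come from the RefSeq table of Zm-B73-REFERENCE-NAM-5.0; there, the starts of all 7 genes equal the deposited coordinates printed here.

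The members and lists were chosen with earlier results of these data known. Named besides the members were, for each step, the most abundant tested gene and the called gene with the largest change at a mean of at least 5 CPM. Named by likeness were the 3 genes (mean of at least 10 CPM, described protein not starting as uncharacterized or hypothetical, 0.5 added to CPM) closest to the most abundant and the most changed member.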

Additional observations from a re-analysis of the deposited data

How the results depend on the processing

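Over 16 alternatives, LOC100273579 ranged from -1.35 to -0.69 on the log2 scale, LOC100284029 from -2.73 to -2.29, cad1 from -6.06 to -4.61 and CCoAOMT1 from 0.36 to 0.75, each with its call kept. Relative to TMM, the median of all genes moved to -0.30 under library-size scaling, -0.15 under upper-quartile scaling and 0.22 with an offset for gene length. Of all genes, 4994 were then higher and 9682 lower with library size only, and 9182 and 5677 with the length offset, where TMM gave 7264 and 7345.

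Of the 7 genes, 2 were called higher with the length offset, where TMM gave 1. LOC100273683 stood at -0.15 under library-size scaling, -0.01 under upper-quartile scaling and, called, 0.39 with the length offset. LOC100192966 was called at -0.47 under library-size and -0.32 under upper-quartile scaling, and ranged from -0.29 to -0.14 with a library left out. LOC542258 stood at 0.39 with the length offset, 0.00 with the replicate block, and -0.30 to 0.31 with a library left out (0.31 without WT replicate 3 and 0.21 without shrek1 replicate 2).

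Other genes also changed sign, without a call in that setting. LOC103653804 stood at 0.21 and LOC100194386 at 0.19 with the length offset, LOC100282911 at 0.02 and LOC100193896 at 0.06 with it, and LOC100274274 at -0.01 with library size only. LOC103653804 ranged from -0.44 to 0.07 with a library left out (0.04 without WT replicate 3, 0.07 without shrek1 replicate 2). The pathway list had 49 to 69 called genes over the alternatives, and its median ranged from -1.03 to -0.13. The cause of these shifts was not tested.

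The labels give no pairing for the replicate numbers, and deviations of same-numbered libraries correlated at 0.0960, -0.0493 and 0.0280. With the replicate block, 14348 genes were called and the 7 genes had 4 calls. Not every library correlated best with its own number. In shrek1 replicate 2 only 7 counts stand behind cad1, which limits its precision.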

Other observations

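Genes annotated as dirigent, some of whose proteins guide the coupling of monolignol radicals, were not among the 7 genes and are already counted in the wider pathway list. Of 17 tested, 11 fell and 2 rose, where 32.4% of all tested genes fell and 32.0% rose. The summed level of the dirigent-annotated genes was 1100, 1069 and 867 FPKM in WT and 41.3, 34.9 and 52.7 FPKM in shrek1. The most abundant, LOC100191141 (chromosome 6, 39480971 to 39482466), fell from 635 ± 53.6 to 2.66 ± 0.431 CPM, and its neighbour LOC100280618 from 241 ± 19.6 to 0.346 ± 0.260 CPM (SD, n = 3). The first is described as a jasmonate-induced protein, and the second is uncharacterized with a salt stress-induced protein as its best match.

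At the branch to flavonoids, also part of that list, the chalcone synthase gene c2 (LOC100274415) stood at 2.58 ± 0.817 CPM in WT, without a single count in the shrek1 libraries. The other tested gene of that wording, the pseudogene LOC100282911, best matches a 6'-deoxychalcone synthase of the oxidoreductase kind. It had 6.91 ± 1.03 and 6.24 ± 0.764 CPM and did not pass. The name c2 was looked up after its values were seen.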
